A study of Mus musculus with 12 samples.

Results

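Expression of 10 genes that control muscle mass was followed in RNA-seq of 2 mouse hindlimb muscles, the gastrocnemius of the calf and the quadriceps of the thigh. The genes were chosen by name, as the IGF, myostatin and mTOR controls of muscle growth: Igf1, Igf1r, Irs1, Irs2, Mstn, Acvr2b, Fst, Eif4ebp1, Ddit4 and Sesn1. All 10 were found among the 36008 genes of the deposited expression table, and all 10 were among the 10481 genes kept for testing. No exon event of these 10 genes was listed among 2423 gastrocnemius and 2416 quadriceps events of skipped exons (SE) and mutually exclusive exons (MXE).

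The libraries came from 6 female mice, all 30 weeks old at the start, of which M02, M03 and M08 stayed on the ground and M11, M12 and M20 lived on the space station for 9 weeks. Ground mice were housed in the same type of hardware, and the mice of both groups were given phosphate-buffered saline every 2 weeks as the control arm of a bone-loss therapy study. The strain is BALB/c in the study's methods and C57BL/6 in the sample labels. Both muscles of the left hindlimb were dissected from carcasses that had been frozen and then thawed, which gave 12 polyA libraries in 4 groups of 3 mice, so replicates were separate animals and the 2 muscles of a mouse were not independent. Results of 3 members stood apart from the rest. Mstn was higher in the quadriceps than in the gastrocnemius, in ground and in flight mice, Irs2 was higher in the gastrocnemius in ground mice, and Ddit4 differed widely between mice, in the same order of mice in both muscles. No member passed the test between flight and ground mice in either muscle.

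Muscle mass follows the balance of an input that builds protein and an input that restrains growth. IGF-1, the product of Igf1, binds the receptor tyrosine kinase encoded by Igf1r, and the adaptors IRS-1 and IRS-2 pass its signal to PI3K and AKT, which switch on the kinase complex mTORC1 and with it translation. Myostatin, the product of Mstn, is a TGF-β family ligand secreted by muscle fibres that limits their growth through the activin receptor type IIB, encoded by Acvr2b, and follistatin, the product of Fst, binds and neutralises it. Downstream, 4E-BP1 (Eif4ebp1) holds back cap-dependent translation until mTORC1 phosphorylates it, while REDD1 (Ddit4) and sestrin 1 (Sesn1) restrain mTORC1 under stress. Most of this control acts on proteins and their phosphorylation, which were not measured here. All 10 genes are protein-coding in GENCODE vM21 on GRCm38. The IGF genes lie at chr10:87858265-87937042 (Igf1, plus strand), chr7:67952827-68233668 (Igf1r, plus), chr1:82233101-82291416 (Irs1, minus) and chr8:10984681-11008458 (Irs2, minus). The myostatin genes lie at chr1:53061640-53068079 (Mstn, plus), chr9:119402118-119434995 (Acvr2b, plus) and chr13:114452290-114458951 (Fst, minus), and the mTORC1 genes at chr8:27260329-27276674 (Eif4ebp1, plus), chr10:59949669-59951834 (Ddit4, minus) and chr10:41809935-41908424 (Sesn1, plus).

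Levels are given as TPM (an abundance of transcripts scaled by their length and to a common total in each library), so levels of different genes can be compared on this scale. Changes were tested with limma on log2(TPM + 1), which understates the change of weakly expressed genes, and p-values were adjusted over all 10481 genes. A call needed both an adjusted p under 0.05 and a difference of more than 1.5-fold. TPM as deposited does not give the number of reads behind a value, and the spread between 3 mice is the measure of its error used here. In whole muscle, fewer cells of a type and less RNA per cell cannot be told apart. The listed TPM of a library summed to between 923290 and 966640. The quadriceps library of ground mouse M08 had 18172 genes with a TPM above 0, and the remaining libraries had 20291 to 21265. The 9 skeletal muscle fibre markers were present in every library, with a summed level of 81700 to 87700 TPM in the gastrocnemius and 103000 to 114000 TPM in the quadriceps, and no marker of the 10 marker lists was at 0 in all libraries of a group.

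In ground mice, Mstn had the highest mean level of the 10 genes in both muscles, at 23.6 TPM ± 3.01 (SD, n = 3) in the gastrocnemius and 38.4 TPM ± 3.75 in the quadriceps. In the ground gastrocnemius it was followed by Irs1 at 22.2 TPM ± 5.05, Irs2 at 19.9 TPM ± 6.52, Eif4ebp1 at 18.5 TPM ± 3.91, Sesn1 at 14 TPM ± 0.184 and Ddit4 at 13.6 TPM ± 5.2. Acvr2b at 11.2 TPM ± 3 and Igf1r at 8.77 TPM ± 0.696 came next. The lowest were the secreted proteins Fst at 3.86 TPM ± 0.93 and Igf1 at 3.42 TPM ± 0.309. Neighbours in this order had overlapping values, except that Fst lay below Igf1r in all 4 groups without overlap. In the ground quadriceps, Mstn also lay above Irs1 (24.5 TPM ± 1.57) without overlap, and Irs1 above Eif4ebp1 (17.2 TPM ± 3.97). Igf1 was above 5 TPM, the level that a gene had to reach in at least 1 library to be tested, only in the gastrocnemius of flight mouse M11. Fst was above it in 3 libraries, all of flight mice, so both genes were tested only through flight libraries.

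**Figure D1:**
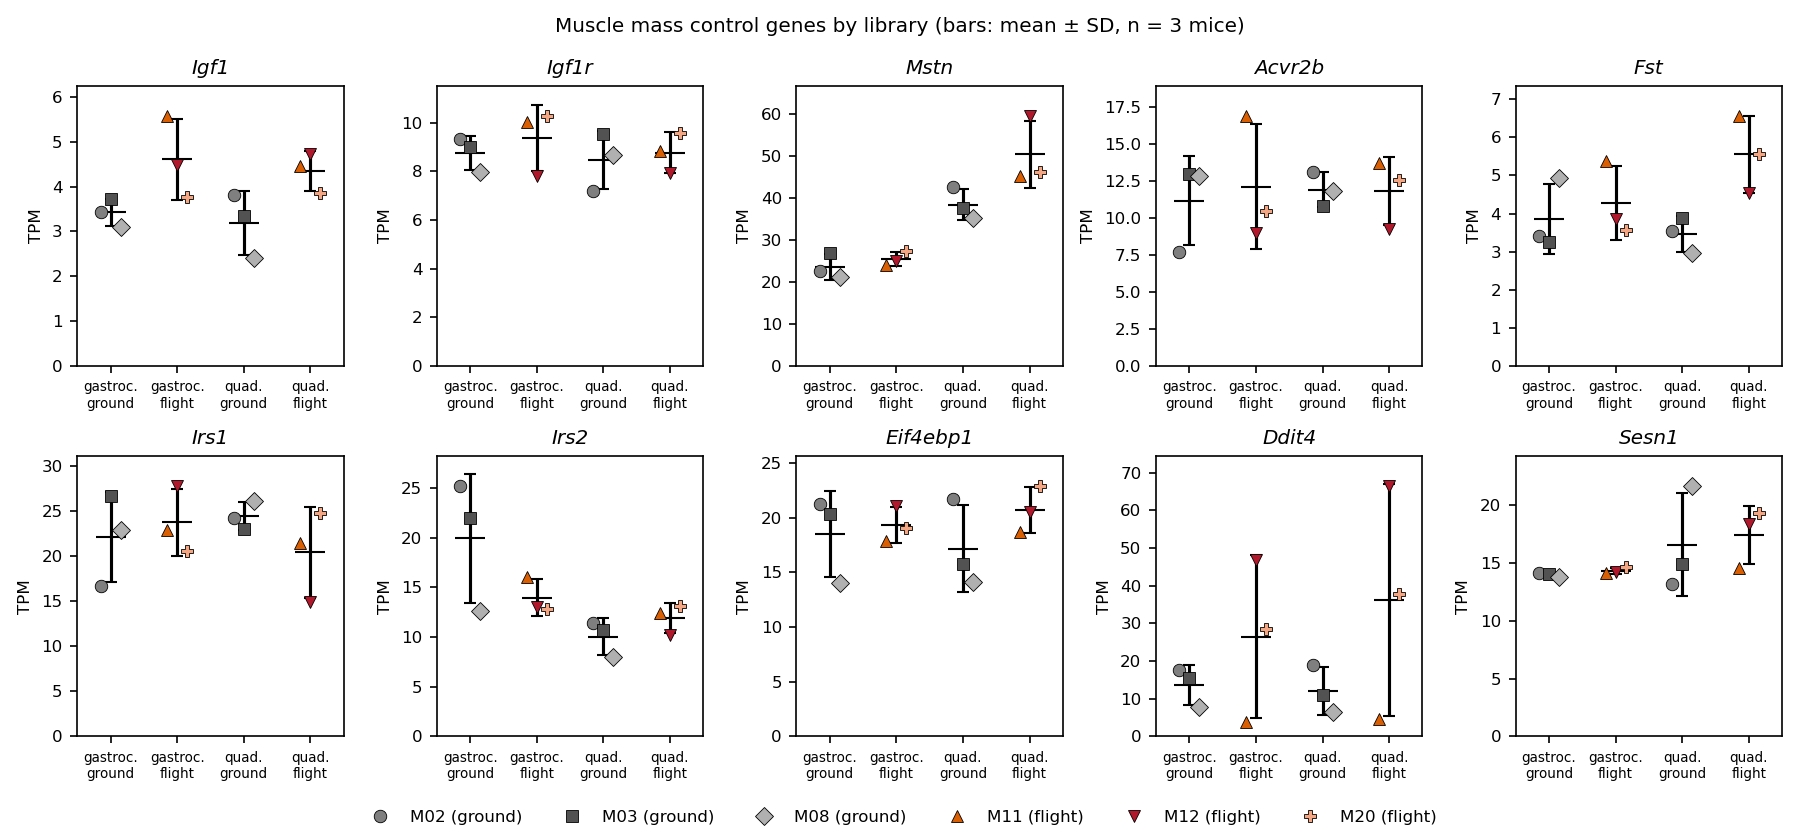
TPM of the 10 muscle mass control genes in each of the 12 libraries, 1 panel per gene, with ground and flight groups of each muscle on the horizontal axis. Each symbol is a mouse and the bars are mean ± SD of 3 mice. Mstn stood higher in both quadriceps groups, and the flight groups of Ddit4 held both its lowest and its highest library.

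The first comparison asked whether 9 weeks of flight changed the transcripts of these genes in the gastrocnemius. No member was called (0 of 10), against 0.229% of all genes tested (24 of 10481), and none had an unadjusted p under 0.05, against 15.1% of all genes. The difference on the log2(TPM + 1) scale was above 0 for 9 members and below 0 for Irs2, and its median was 0.10, against 0.02 over all genes. The adjusted p of the members ranged from 0.367 to 0.895.

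No gene of the IGF ligand, receptor and adaptor arm passed the test in this muscle. Igf1, the growth factor itself, was at 3.44, 3.72 and 3.11 TPM in the ground gastrocnemius (M02, M03 and M08) and at 5.57, 4.47 and 3.78 TPM in the flight gastrocnemius (M11, M12 and M20). The flight values lay narrowly above all ground values, and the mean was 1.35-fold higher, with a log2 difference of 0.33 (SE 0.158, adjusted p = 0.367). Igf1 was the only member whose flight values all lay above the ground values in the gastrocnemius (1 of 10), where 12.5% of all genes did so. It was tested only through the flight gastrocnemius of M11, so this count follows in part from the filter. Igf1r was at 7.99 to 9.33 TPM on the ground and 7.83 to 10.3 TPM in flight, with a 95% interval of the log2 difference from −0.22 to 0.38. Irs1, the main IGF adaptor of muscle, overlapped, at 16.7 to 26.7 TPM on the ground and 20.5 to 27.8 TPM in flight (adjusted p = 0.805). Irs2, the second adaptor, was at 25.2, 22.0 and 12.6 TPM on the ground and at 16.1, 13 and 12.8 TPM in flight. The low value of ground mouse M08 lay just under the flight values, and the log2 difference of −0.44 (SE 0.234, adjusted p = 0.415) did not pass the test.

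The restraining arm overlapped between ground and flight gastrocnemius as well. Mstn was at 22.6, 26.9 and 21.2 TPM on the ground and 24.2, 24.9 and 27.3 TPM in flight, and the 95% interval of its fold difference ran from 0.905 to 1.29. A change of Mstn beyond these bounds in the gastrocnemius is outside what this test allows at 95%. Its receptor Acvr2b was at 7.72, 13 and 12.9 TPM on the ground and 16.9, 8.96 and 10.5 TPM in flight, with no order between the groups (adjusted p = 0.895). The antagonist Fst was at 3.40, 3.24 and 4.93 TPM against 5.38, 3.86 and 3.56 TPM (adjusted p = 0.808).

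Of the mTORC1 controls, Sesn1 was the most even. Its 6 gastrocnemius values lay between 13.8 and 14.6 TPM, and the 95% interval of the flight difference ran from 0.897-fold to 1.16-fold. Eif4ebp1 was at 14 to 21.2 TPM on the ground and 17.9 to 21.1 TPM in flight (adjusted p = 0.851). Ddit4 was the least even member. It was at 17.5, 15.6 and 7.70 TPM on the ground and at 3.82, 46.9 and 28.5 TPM in flight, so that flight mouse M11 lay below every ground mouse and flight mice M12 and M20 above every one. Its log2 difference of 0.45 had an SE of 0.776 and a 95% interval from 0.391-fold to 4.77-fold (adjusted p = 0.818). Without M11 the difference was 1.44 (adjusted p = 0.0966), and without M12 it was −0.22.

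The second comparison asked the same of the quadriceps, in the same mice. No member was called there either (0 of 10), against 0.0286% of all genes tested (3 of 10481). Mstn and Fst had an unadjusted p under 0.05 (2 of 10), where 10.8% of all genes did, and 3 of 10 members had all flight values above all ground values, where 9.24% of all genes did. Igf1 and Fst, which with Mstn make up these 3, were tested only through flight libraries, so both counts follow in part from the filter. The median log2 difference of the members was 0.25, against 0.01 over all genes, with 8 members above 0 and 2 below. Adjusted p ranged from 0.378 to 0.967.

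Both sides of the myostatin axis were among the members that did not overlap in the quadriceps. Mstn was at 42.5, 37.5 and 35.2 TPM in ground mice and at 45.3, 59.6 and 46.3 TPM in flight mice. The lowest flight value lay above the highest ground value, and the log2 difference was 0.38 (SE 0.13, adjusted p = 0.40), with a 95% interval from 1.05-fold to 1.61-fold. Fst, which neutralises myostatin, was at 3.54, 3.88 and 2.96 TPM on the ground and 6.56, 4.53 and 5.56 TPM in flight. All 3 flight mice lay above all ground mice, with means of 3.46 TPM ± 0.463 and 5.55 TPM ± 1.01 (SD, n = 3 each), and the log2 difference was 0.55 (SE 0.177, adjusted p = 0.378). Fst was tested only because 3 flight libraries were above 5 TPM, so its place in these counts follows in part from the filter. Neither difference passed the adjustment over all genes. The receptor Acvr2b was at 10.8 to 13.1 TPM on the ground and 9.24 to 13.7 TPM in flight (log2 difference −0.02, adjusted p = 0.967).

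Igf1 was the third member without overlap in the quadriceps, at 3.81, 3.34 and 2.41 TPM on the ground and 4.45, 4.73 and 3.85 TPM in flight. The highest ground and the lowest flight mouse nearly touched, and the log2 difference of 0.36 (SE 0.187, adjusted p = 0.523) was close to the one in the gastrocnemius. The mean TPM of Igf1 was 1.36-fold higher in flight quadriceps. Both muscles came from the same mice, so these values are not independent of those in the gastrocnemius. Igf1r lay at 7.18 to 9.55 TPM against 7.92 to 9.57 TPM. The adaptors pointed in opposite directions without passing the test, Irs1 at 23.0 to 26.1 TPM on the ground and 15 to 24.9 TPM in flight (log2 difference −0.28, adjusted p = 0.601) and Irs2 at 7.94 to 11.4 TPM and 10.2 to 13.1 TPM (0.23, adjusted p = 0.638).

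Ddit4 in the quadriceps was at 18.9, 10.9 and 6.45 TPM on the ground and at 4.59, 66.3 and 37.7 TPM in flight. As in the gastrocnemius, M11 was lowest of the 6 mice and M12 and M20 were highest, and the log2 difference of 1.01 had an SE of 0.882 (95% interval 0.476-fold to 8.54-fold, adjusted p = 0.698). Without M11 it was 2.08 (adjusted p = 0.276), and without M12 it was 0.28. Sesn1 was at 13.2, 14.9 and 21.6 TPM against 14.5, 18.4 and 19.3 TPM, so its values spread more than in the gastrocnemius, and Eif4ebp1 at 14.1 to 21.7 TPM against 18.7 to 22.8 TPM (log2 difference 0.27, adjusted p = 0.585). Markers of fat moved in the same libraries. The summed level of 7 adipocyte markers was 324 to 601 TPM in ground quadriceps and 206 to 286 TPM in flight quadriceps, and 6 of the 6 tested were lower at an unadjusted p under 0.05. Only Lep, the seventh marker, was at 0 in any of these libraries, in ground quadriceps M08. The part of this difference in the quadriceps values of the members was not tested. In the gastrocnemius the same sum was 182 to 263 TPM on the ground and 182 to 240 TPM in flight. There the slow fibre markers differed, with 7 of 7 lower in flight, 2 of them called, a median log2 difference of −0.56 and sums of 1580 to 1930 TPM on the ground and 983 to 1180 TPM in flight. Their part in the gastrocnemius values of the members was not tested.

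**Figure D2:**
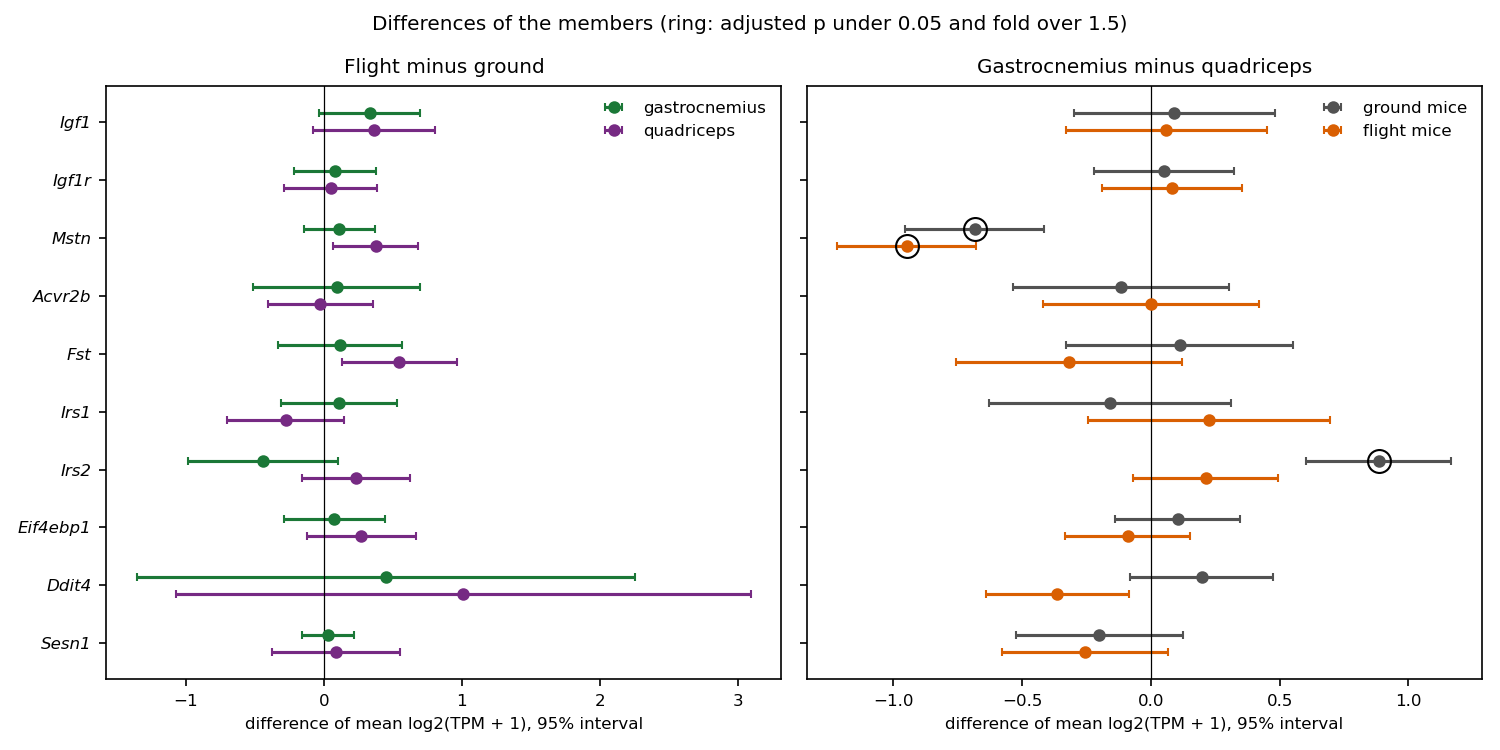
Difference of mean log2(TPM + 1) for each member (points) with its 95% interval (bars), flight minus ground in each muscle on the left and gastrocnemius minus quadriceps in ground and in flight mice on the right. Rings mark calls: none stands on the left, and on the right Mstn in both conditions and Irs2 in ground mice.

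An interaction fitted to all 12 libraries, with each mouse as a block, tested whether flight and ground differed by another amount in one muscle than in the other. No gene was called, so the share of calls was 0% of 10481 genes, and the smallest adjusted p over all genes was 0.503. At an unadjusted p under 0.05 there were 534 genes (5.09%), among them 2 of 10 members. Irs2 had a flight difference in the gastrocnemius that was lower than that in the quadriceps by 0.67 on the log2 scale (SE 0.174, adjusted p = 0.811). For Ddit4 it was lower by 0.56 (SE 0.171, adjusted p = 0.939). For Mstn the difference of −0.26 had an adjusted p of 0.968, so a flight difference of Mstn particular to the quadriceps was not shown.

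The muscles themselves were compared within mice, gastrocnemius against quadriceps, first in ground mice. Mstn was lower in the gastrocnemius and Irs2 higher, and both were called (2 of 10 members), where 3.2% of all genes tested were called and 30.5% had an unadjusted p under 0.05. Mstn was at 22.6 TPM in the gastrocnemius and 42.5 TPM in the quadriceps of M02, at 26.9 and 37.5 TPM in M03, and at 21.2 and 35.2 TPM in M08. The quadriceps was higher in 3 of 3 ground mice, and the log2 difference of −0.69 (SE 0.118, adjusted p = 0.016) corresponded to a 1.61-fold higher level in the quadriceps. Irs2 was at 25.2 TPM in the gastrocnemius and 11.4 TPM in the quadriceps of M02, at 22.0 and 10.7 TPM in M03, and at 12.6 and 7.94 TPM in M08. The gastrocnemius was higher in 3 of 3 ground mice, by 1.85-fold (log2 difference 0.88, SE 0.123, adjusted p = 0.00857). The adjusted p of the other 8 members lay between 0.31 and 0.797.

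In flight mice only Mstn was called among the members (1 of 10), where 3.34% of all genes tested were called and 30% had an unadjusted p under 0.05. It was at 24.2 and 45.3 TPM in gastrocnemius and quadriceps of M11, at 24.9 and 59.6 TPM in M12, and at 27.3 and 46.3 TPM in M20. The quadriceps was higher in each of them, 1.93-fold on average (log2 difference −0.95, SE 0.118, adjusted p = 0.00507). Irs2 was at 16.1, 13 and 12.8 TPM in the flight gastrocnemius and 12.4, 10.2 and 13.1 TPM in the flight quadriceps. It was higher in the gastrocnemius of M11 and M12 and marginally lower in that of M20, and the log2 difference of 0.21 (adjusted p = 0.284) did not pass the test. Ddit4 was higher in the quadriceps of all 3 flight mice (log2 difference −0.36, adjusted p = 0.0847), and its difference in ground mice was 0.20 (adjusted p = 0.31).

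The median difference of all genes between the muscles was −0.12 in ground mice and −0.11 in flight mice, that is, most genes were listed slightly lower in the gastrocnemius. After each library was rescaled by its median ratio, the difference of Mstn was −0.59 in ground mice (adjusted p = 0.0341) and −0.86 in flight mice (adjusted p = 0.0128), and that of Irs2 in ground mice was 0.97 (adjusted p = 0.00813). The ground calls were the less firm ones. With no filter on low values the adjusted p was 0.0651 for Mstn and 0.052 for Irs2. Without M02, M03 or M08 it was 0.0852, 0.0577 and 0.076 for Mstn, and without M02 or M03 it was 0.0615 and 0.064 for Irs2. The flight call of Mstn was made under all 12 alternatives (log2 difference −1.05 to −0.81). Muscle fibre, nerve and fat markers differed between the same libraries. The 9 fibre markers summed to more in the quadriceps, with 6 of 9 lower and 2 of 9 higher in the gastrocnemius at an unadjusted p under 0.05, in ground and in flight mice alike, where 24.7% of all genes were lower on the ground and 24.7% in flight. The 6 Schwann cell and nerve markers summed to 151 to 325 TPM in the gastrocnemius and 58.1 to 91.8 TPM in the quadriceps. Of the 6 adipocyte markers tested, 6 were lower in the gastrocnemius of ground mice, 4 of them called, with a median log2 difference of −0.98. In flight mice none was called and the median was −0.07. The part of these markers in the differences of Mstn and Irs2 was not tested.

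Ddit4 differed more between the mice of a flight group than between flight and ground means. Ranked by Ddit4, the 6 mice fell into the same order in both muscles, M12 highest, then M20, M02, M03 and M08, and M11 lowest. The gastrocnemius values were 46.9, 28.5, 17.5, 15.6, 7.70 and 3.82 TPM in that order, and the quadriceps values were 66.3, 37.7, 18.9, 10.9, 6.45 and 4.59 TPM. The log2 values of the 2 muscles correlated over the 6 mice with Pearson's r = 0.971 (exact permutation p = 0.00417, adjusted p = 0.0417 over 10 members) and Spearman's rho = 1 (exact permutation p = 0.00278, adjusted p = 0.0278). Leaving out M11 and M12, the mice farthest from the median, gave r = 0.961. Of all genes tested, 65 of 10481 (0.62%) had the same order of mice in both muscles. Igf1 came next among the members, with r = 0.784 (exact permutation p = 0.0667, adjusted p = 0.333) and rho = 0.886 (exact permutation p = 0.0333, adjusted p = 0.167). For the other 8 members r lay between −0.593 and 0.676, with adjusted p of 0.394 or more. These correlations pool ground and flight mice, since 3 mice of a group are too few for one. Some cell type markers also differed between these mice, and 2 of the 10 marker lists are given here. Neither had the full order of Ddit4 or its reverse in either muscle, but some sums came close. The Schwann cell and nerve sum in the gastrocnemius had the order of Ddit4 except for M08 and M11. The endothelial sum had the reverse order except for M03 and M08 in the gastrocnemius and M02 and M03 in the quadriceps. The 6 Schwann cell and nerve markers summed in the gastrocnemius to 325 TPM in M12, 298 in M20, 225 in M02, 222 in M03, 151 in M08 and 182 in M11, while in the quadriceps M12 was at 65 TPM and M11 at 78.4 TPM. The sum of the 6 endothelial markers ran the other way. In the gastrocnemius it was 210 TPM in M11, 175 in M08, 177 in M03, 174 in M02, 154 in M20 and 144 in M12. In the quadriceps of the same mice it was 181, 171, 144, 153, 139 and 109 TPM. Egfl7 made up the largest part of this sum, and single markers could differ from it. Pecam1 in the gastrocnemius was highest in M03, at 35.4 TPM. The part of these markers in the order of Ddit4 was not tested. Flight mice alone spanned the whole range of Ddit4, with a coefficient of variation of 81.8% in the gastrocnemius and 85.4% in the quadriceps.

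Ddit4 is known as a gene induced by glucocorticoids and by the transcription factor ATF4, so lists of genes known to respond to either were set beside it. Of 14 glucocorticoid-responsive genes, 13 correlated positively with Ddit4 over the 6 mice in the gastrocnemius, with a median r of 0.903, and 14 in the quadriceps, with a median r of 0.894. Of all other genes tested, 43.3% and 47.5% correlated positively, with medians of −0.127 and −0.039. An exact permutation p of r under 0.05 with a positive r was found for 9 of the 14 in the gastrocnemius and 11 in the quadriceps, against 3.87% and 4.69% of all genes. Adjusted over the 40 correlations computed, the exact permutation p was under 0.05 for 8 and 7 genes by r and for 9 and 5 by rho. Zbtb16, a transcription factor strongly induced by glucocorticoids, was at 141, 95, 86.7, 81.5, 51.1 and 37.1 TPM in the gastrocnemius of M12, M20, M02, M03, M08 and M11. In the quadriceps of the same mice it was at 114, 68.9, 56.6, 49.1, 39.5 and 29.7 TPM, and so it had the order of Ddit4 in both muscles. Its r with Ddit4 was 0.99 and 0.978 (exact permutation p = 0.00139 and adjusted p = 0.00926 for both), and 0.956 and 0.994 without M11 and M12.

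The metallothionein Mt2 spanned 7.01 to 39.2 TPM in the gastrocnemius and 6.99 to 95.9 TPM in the quadriceps, with r of 0.929 and 0.995. Tsc22d3, which encodes the anti-inflammatory protein GILZ, spanned 88.8 to 171 TPM and 93.7 to 208 TPM, with r of 0.93 and 0.991. In both genes M11 was lowest and M12 highest in both muscles. Fkbp5, a chaperone that binds the glucocorticoid receptor, had r of 0.954 and 0.865 and of 0.835 and 0.537 without M11 and M12, so its quadriceps value rests in part on those mice. Not all genes of the list followed Ddit4. Klf9 had r of −0.111 in the gastrocnemius and 0.873 in the quadriceps, Pdk4 had 0.867 and 0.452, and Nr3c1, the receptor gene itself, 0.437 and 0.507. Over the 14 genes, M12 was highest in 12 in the gastrocnemius and in 7 in the quadriceps, and M11 was lowest in 9 and 8. Of the 14 genes of the ATF4 list, 6 were tested, and these include Atf4 itself beside its targets. They had a median r of −0.525 and −0.238 with Ddit4, and 1 of them was positive in each muscle. None reached an adjusted p under 0.05 by r, and Ddit3 in the gastrocnemius did so by rho, at −0.943 (exact permutation p = 0.0167, adjusted p = 0.0444). Between flight and ground mice, none of the 14 glucocorticoid-responsive genes was called in either muscle, with medians of 0.13 and 0.32. These lists were set up with the spread of Ddit4 known. All correlations use the same 6 mice, so those of different genes are not independent of each other. Hormone levels are not part of these data, and the cause of the spread of Ddit4 was not tested.

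**Figure D3:**
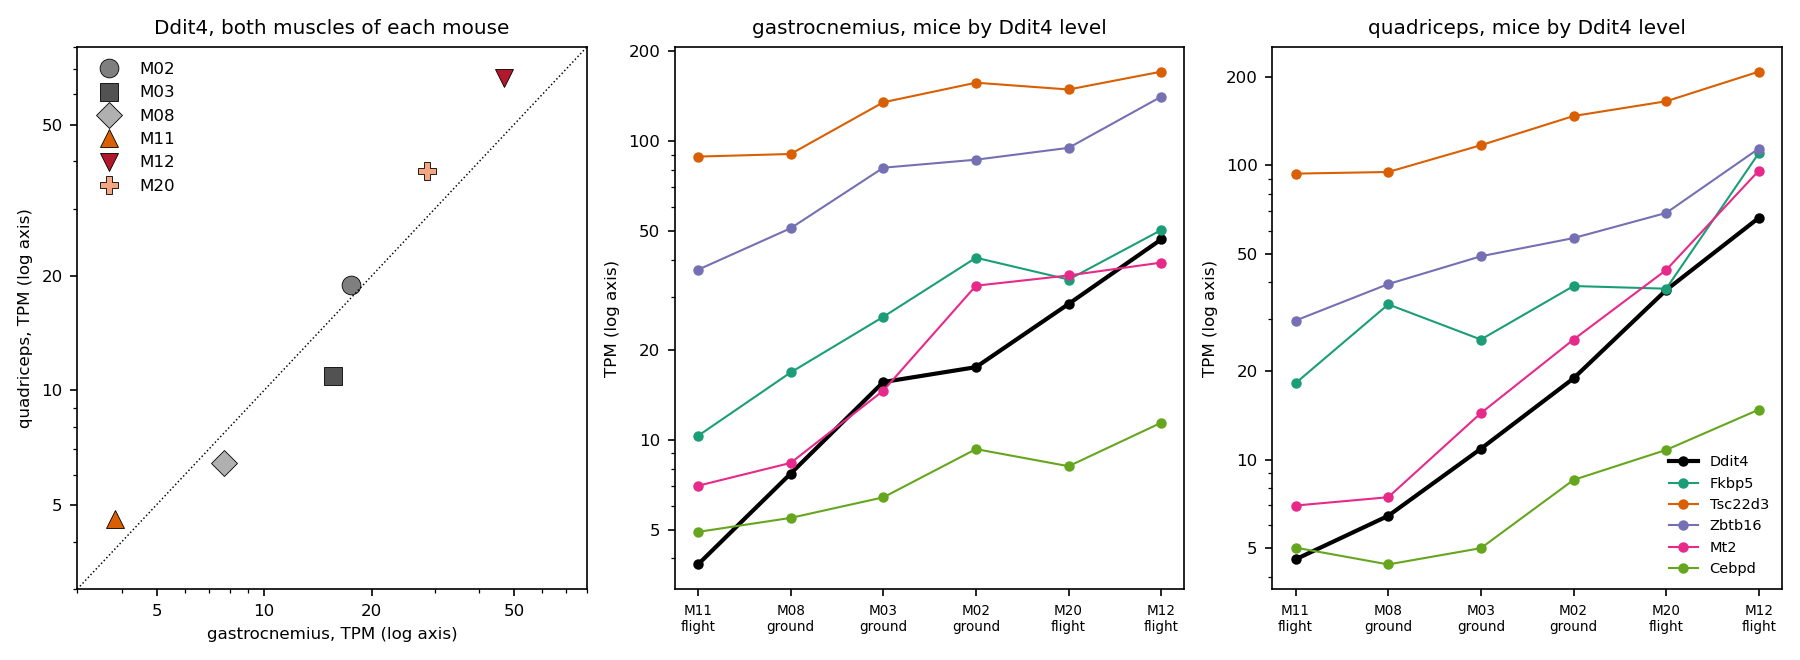
Ddit4 in both muscles of each mouse (left; both axes in TPM on log scales, dotted line: equal levels), and Ddit4 with 5 glucocorticoid-responsive genes in the gastrocnemius (middle) and quadriceps (right), in TPM on a log axis with mice ordered by Ddit4. M11 is lowest and M12 highest in Ddit4 in both muscles, and Zbtb16 follows the same order in both.

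The other genes of these pathways were followed in 9 lists of 141 genes. None was called between flight and ground mice in either muscle. In the IGF and insulin input, 11 of 15 genes were tested, with 7 higher and 4 lower in flight gastrocnemius (median log2 difference 0.04) and 5 higher and 6 lower in flight quadriceps (median −0.00). Grb10, an adaptor that dampens insulin and IGF receptors, was 21.3 to 26.1 TPM in ground and 27.3 to 29.8 TPM in flight quadriceps (log2 difference 0.28, adjusted p = 0.414), and its difference in the gastrocnemius was 0.15. Among 14 tested genes of PI3K and AKT, 5 were higher and 9 lower in the gastrocnemius (median −0.05) and 7 and 7 in the quadriceps.

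Of the mTOR complexes and the TSC complex that inhibits mTORC1, 11 of 12 genes were tested, 8 higher and 3 lower in flight gastrocnemius (median 0.12) and 6 and 5 in flight quadriceps (median 0.04). Rictor, the defining subunit of mTORC2, differed by 0.20 (adjusted p = 0.355) and 0.25 (adjusted p = 0.422). The amino acid and stress sensors upstream of mTORC1 had 6 of 19 higher and 13 lower in the gastrocnemius (median −0.10) and 4 and 15 in the quadriceps (median −0.15), where 46.4% and 47.9% of all genes were lower. At an unadjusted p under 0.05 there was 1 of 19 in each muscle (5.26%), below the share of all genes. The lowest p of this list in each muscle was that of Lamtor5, a subunit of the Ragulator scaffold that brings mTORC1 to the lysosome. It was at 26.6, 29.7 and 27.0 TPM in ground and 21.9, 16.3 and 17.8 TPM in flight gastrocnemius, and at 40.6, 43.2 and 32.5 TPM in ground and 30.1, 29.0 and 29.2 TPM in flight quadriceps. Flight values lay below all ground values in both muscles, with log2 differences of −0.56 (adjusted p = 0.135) and −0.38 (adjusted p = 0.363). Without flight mouse M11 the adjusted p in the gastrocnemius was 0.0372 and the gene would be called, but leaving M11 out also moved the number of all genes called in that muscle from 24 to 133.

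Among 14 mTORC1 outputs, 10 were higher and 4 lower in flight gastrocnemius (median 0.10) and 9 and 5 in flight quadriceps (median 0.02). Rps6kb1, the ribosomal protein S6 kinase, was at 28.4, 32.7 and 35.6 TPM on the ground and 38.8, 47.0 and 41.9 TPM in flight gastrocnemius. Its values did not overlap, and the log2 difference was 0.39 (adjusted p = 0.213), with 0.19 (adjusted p = 0.475) in the quadriceps. Eef2k, the kinase that slows elongation, differed by 0.30 (adjusted p = 0.249) and 0.27 (adjusted p = 0.539), and Eif4ebp2, a relative of Eif4ebp1, by −0.17 and −0.19 (adjusted p = 0.458 in the quadriceps).

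In the myostatin and activin arm 15 of 19 genes were tested, 9 higher and 6 lower in the gastrocnemius (median 0.07) and 8 and 7 in the quadriceps (median 0.00). Smad3, a transcription factor that carries the myostatin signal to the nucleus, was at 25.9, 28.1 and 24.8 TPM in ground and 31.2, 39.8 and 40.2 TPM in flight quadriceps. These groups did not overlap (log2 difference 0.48, adjusted p = 0.325), while in the gastrocnemius they did (0.26). The BMP arm, which favours growth, had 9 of 14 genes tested, with 2 higher and 7 lower in both muscles (medians −0.16 and −0.15). Of all genes, 46.4% were lower in flight gastrocnemius and 47.9% in flight quadriceps. The list also holds an antagonist, so its counts do not give a direction of BMP signalling. Nog, a secreted BMP antagonist, differed by −0.29 in the gastrocnemius and by −0.55 in the quadriceps (adjusted p = 0.459). It was above 5 TPM only in 3 ground libraries and was tested only through them. Of 6 tested genes of the ATF4 list, Atf4 itself among them, 5 were lower in the gastrocnemius (median −0.19) and 4 in the quadriceps (median −0.12). Chac1, which degrades glutathione, differed by −0.57 (adjusted p = 0.25) and −0.38 (adjusted p = 0.385), Atf5 by −0.30 (adjusted p = 0.193) and −0.19, and Ddit3 by −0.27 and −0.33 (adjusted p = 0.429). The glucocorticoid receptor gene Nr3c1 differed by 0.29 (adjusted p = 0.272) and 0.11.

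Between the muscles, 5 of the 113 other list genes tested were called in ground mice (4.42%, against 3.2% of all genes) and 5 of 113 in flight mice (4.42%, against 3.34%), 8 different genes in all. These shares are near those of all genes. Gdf11, the closest relative of Mstn, was at 3.27 to 4.12 TPM in the gastrocnemius and 6.23 to 8.32 TPM in the quadriceps of ground mice (log2 difference −0.76, adjusted p = 0.0181), and its difference in flight mice was −0.51 (adjusted p = 0.0473), under 1.5-fold. All 6 gastrocnemius values of Gdf11 were under 5 TPM, so it was tested only through quadriceps libraries, where it is higher, and the call follows in part from that filter. Acvr2a, the sister receptor of Acvr2b, was at 12.5 to 13.1 TPM and 19.2 to 25.9 TPM on the ground (−0.70, adjusted p = 0.0162) and differed by −0.63 in flight mice (adjusted p = 0.0168). Acvr2b did not share this difference, at −0.12 (adjusted p = 0.703) on the ground and 0.00 (adjusted p = 0.998) in flight, although the difference between these receptors was not itself tested. The Ragulator genes Lamtor2 (−0.63, adjusted p = 0.0165) and Lamtor4 (−0.62, adjusted p = 0.017) were lower in the ground gastrocnemius. Lamtor5 (−0.64, adjusted p = 0.0108) and the Rag GTPase Rragd (−0.65, adjusted p = 0.00548) were lower in the flight gastrocnemius. In the other condition these Ragulator and Rag genes were also lower in the gastrocnemius, without a call. On the ground, Rragd was at 67.8 to 78.9 TPM in the gastrocnemius and 96.8 to 120 TPM in the quadriceps. In flight, Lamtor2 was at 34.8 to 38.9 TPM and 48.5 to 60.9 TPM. So these calls do not mark a difference particular to ground or flight mice. Higher in the gastrocnemius were Cebpb, a transcription factor of the glucocorticoid list, on the ground (0.96, adjusted p = 0.0171) and in flight (0.67, adjusted p = 0.0403), and the IGF-binding protein gene Igfbp4 in flight (0.61, adjusted p = 0.0109). On the ground Igfbp4 was also higher in the gastrocnemius of each mouse without a call, at 19.8 to 28.8 TPM against 14.3 to 20.7 TPM. At an unadjusted p under 0.05, 10 of 19 amino acid and stress sensors were lower in the ground gastrocnemius and 9 of 19 in the flight gastrocnemius, against 24.7% of all genes in each. After rescaling, the differences of Lamtor2 and Lamtor4 in ground mice, and of Lamtor5, Acvr2a and Rragd in flight mice, were under 1.5-fold. Without ground mouse M02 or M03 none of the 5 ground calls of these genes held (adjusted p from 0.0642 to 0.0896), nor did any of their 5 flight calls without M12 (0.0507 to 0.217). With no filter on low values none of the ground calls held (0.0545 to 0.0828). Both Cebpb calls were lost with mouse left out of the fit (adjusted p = 0.138 and 0.293), and its flight call also with no filter (0.153), with a filter of TPM above 1 (0.0606), without a trend (0.0736) and without M02, M03, M08 or M11 (0.0557 to 0.159).

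**Figure D4:**
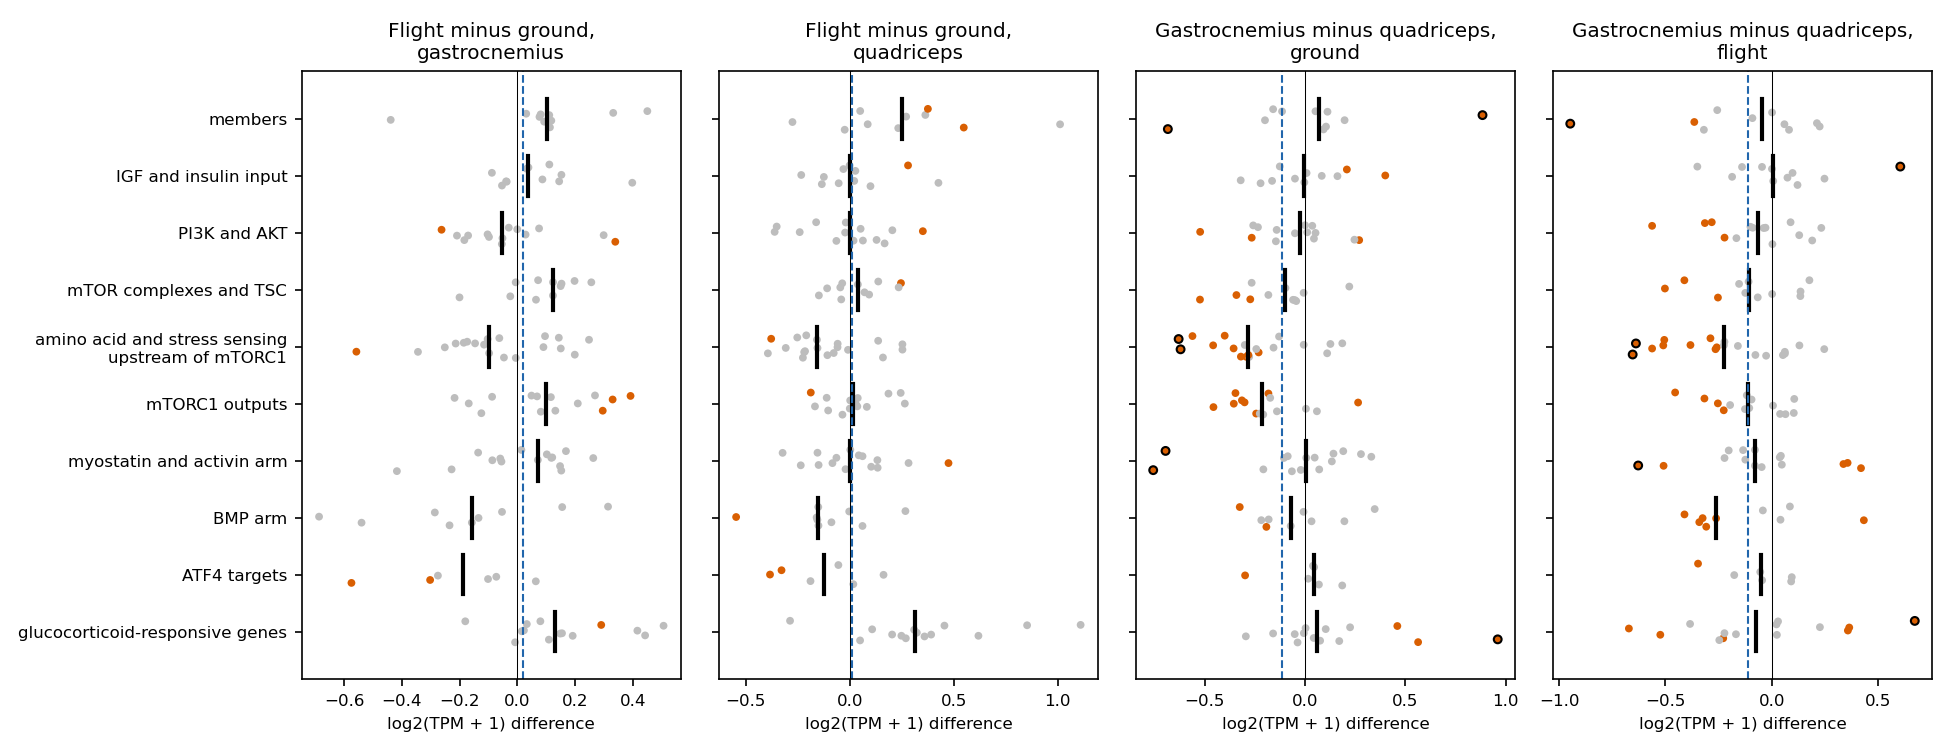
Log2(TPM + 1) difference of each tested gene (points) in the members and the 9 other lists, in the 2 flight comparisons and the 2 muscle comparisons. Orange points have an unadjusted p under 0.05, black outlines mark calls, short black bars are list medians and the dashed line is the median of all genes. Outlined points stand only in the 2 muscle panels.

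Genes whose levels followed each member most closely were found by Pearson's r over the 12 libraries after the mean of each of the 4 groups was subtracted, as a description. Ddit4 had the highest such value of all members, 0.99 with Plin4, which coats lipid droplets, and 0.986 with Odf3l2. Irs1 followed with 0.982 for St6galnac6 and 0.94 for Dab2ip, and Eif4ebp1 with 0.976 for Rfx1 and 0.966 for Cd59b. Acvr2b was closest to Cd55 (0.965) and Isoc1 (0.961), and Sesn1 to Sltm (0.95) and Fbh1 (0.948). Mstn was closest to the immediate early gene Jun (0.931) and to Zfp12 (0.916), Igf1r to Wdr26 (0.932) and Fth1 (0.913), and Fst to Nedd8 (0.93) and Tmem230 (0.908). Igf1 was closest to the mitochondrial genes Mrps34 (0.924) and Ndufs4 (0.92), and Irs2 to Fads1 (0.924) and Itfg2 (0.923). Each value is the highest among all genes tested, and high values were found for every member. Between members, the largest values were 0.724 for Irs2 with Eif4ebp1, −0.717 for Fst with Ddit4 and −0.707 for Acvr2b with Ddit4. Libraries of a mouse share that mouse, so these are not 12 independent points.

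For splicing, the tables listed 19 events in each muscle in 17 other genes of the lists, and none in the members. Percent spliced in (PSI) is the share of transcripts that include an exon, here computed from the junction reads and the effective lengths. After events with few reads or extreme PSI were left out, 18 events of 16 genes in the gastrocnemius and 17 of 15 genes in the quadriceps were tested. None was called in the gastrocnemius, where 0.378% of all events tested were, and none in the quadriceps, where 0% of 2062 events were. At an unadjusted p under 0.05, 1 of 18 (5.56%) and 2 of 17 (11.8%) events passed, where 9.49% and 7.76% of all events did. The 3 samples of a group carry no mouse names in these tables, so they are given in the order listed.

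Insr, the insulin receptor that shares the IRS adaptors with Igf1r, is described for its role and was chosen after its values were seen. Its event is a skipped exon of 36 bases at chr8:3181702-3181737 (GRCm38, minus strand), coding in the GENCODE vM21 transcript Insr-203, where it is exon 4 of 5. The exon is shown in capitals between 12 bases of each neighbouring exon.
Insr: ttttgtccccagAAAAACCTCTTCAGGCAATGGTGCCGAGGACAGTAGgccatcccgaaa
Its PSI was 16.1%, 49.0% and 24.3% in ground and 27.8%, 30.2% and 47.5% in flight gastrocnemius. In the quadriceps it was 43.5%, 78.9% and 0% on the ground and 58.0%, 40.2% and 24.8% in flight. Each value rested on 7 to 28 junction reads, groups overlapped in both muscles, and adjusted p was 0.894 and 0.887.

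The events with the lowest p included skipped coding exons of 3 signalling genes whose lengths are multiples of 3. They are shown since each adds or removes whole codons of its protein, again with the exon in capitals between 12 bases of the neighbouring exons. Fnip1 binds folliculin in the amino acid arm of mTORC1, and its exon 7 of 18 (84 bases) lies at chr11:54487712-54487795 on the plus strand. Shc1 is an adaptor of the insulin and IGF receptors, and its exon 6 of 13 (54 bases) lies at chr3:89424190-89424243 on the plus strand. Ltbp3 encodes a protein that tethers latent TGF-β family ligands, and its exon 6 of 10 in Ltbp3-204 (141 bases) lies at chr19:5757035-5757175 on the plus strand.
Fnip1: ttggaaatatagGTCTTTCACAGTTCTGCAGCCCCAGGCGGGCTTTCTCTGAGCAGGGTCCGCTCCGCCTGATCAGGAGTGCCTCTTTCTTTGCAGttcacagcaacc
Shc1: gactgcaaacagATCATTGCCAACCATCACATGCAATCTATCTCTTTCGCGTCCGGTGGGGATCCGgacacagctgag
Ltbp3: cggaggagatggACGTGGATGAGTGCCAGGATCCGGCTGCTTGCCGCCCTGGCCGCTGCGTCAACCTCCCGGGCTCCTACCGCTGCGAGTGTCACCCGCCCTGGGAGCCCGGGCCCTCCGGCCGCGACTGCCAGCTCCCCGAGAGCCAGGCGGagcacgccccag

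The Fnip1 exon had a PSI of 100% in all 3 ground quadriceps and 85.7%, 72.7% and 83.3% in flight quadriceps, on 15 to 33 junction reads. The groups did not overlap, and the mean PSI differed by −19.4 percentage points (adjusted p = 0.538). In the gastrocnemius the same exon was at 93.9%, 94.9% and 83.3% on the ground and 100%, 100% and 93.9% in flight, which is the opposite order (adjusted p = 0.756), and the difference between the muscles was not tested. The Shc1 exon was at 80%, 76.5% and 26.3% in ground and 100% in all 3 flight quadriceps, on 8 to 16 reads (difference 39.1 points, 21.8 points without the third ground sample, adjusted p = 0.617). In the gastrocnemius it had too few reads to be tested. It was at 100%, 60% and 75% on the ground and 85.7%, 80% and 100% in flight there. The Ltbp3 exon was at 7.69%, 7.14% and 13% in ground and 0%, 2.44% and 4.76% in flight gastrocnemius, on 7 to 21 reads (difference −6.89 points, adjusted p = 0.493). In the quadriceps it was at 0%, 4.76% and 0% on the ground and 0%, 7.69% and 0% in flight (adjusted p = 0.974). By an exact permutation test of PSI, each of the 3 exons had p = 0.1 in the muscle where its groups did not overlap. This is the smallest p that 3 samples against 3 allow. The events were picked by their low p in the same samples, so this value is not separate support.

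The remaining events with the lowest p were in translation factors and a lipid phosphatase. An MXE pair at the start of Eif4g1, the scaffold of the cap-binding complex, was at 9.52%, 1.75% and 8.11% in ground and 19.0%, 17.7% and 9.86% in flight gastrocnemius (adjusted p = 0.565). A skipped exon of Eif4g2 was at 98.8%, 95.4% and 95.9% against 90.5%, 90.5% and 97.2% in the gastrocnemius (adjusted p = 0.611). In the quadriceps, an exon of Inppl1, which encodes the lipid phosphatase SHIP2, was at 47.1% and 28.6% in the ground samples with reads and 69.2%, 48.1% and 52.4% in flight (adjusted p = 0.771).

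**Figure D5:**
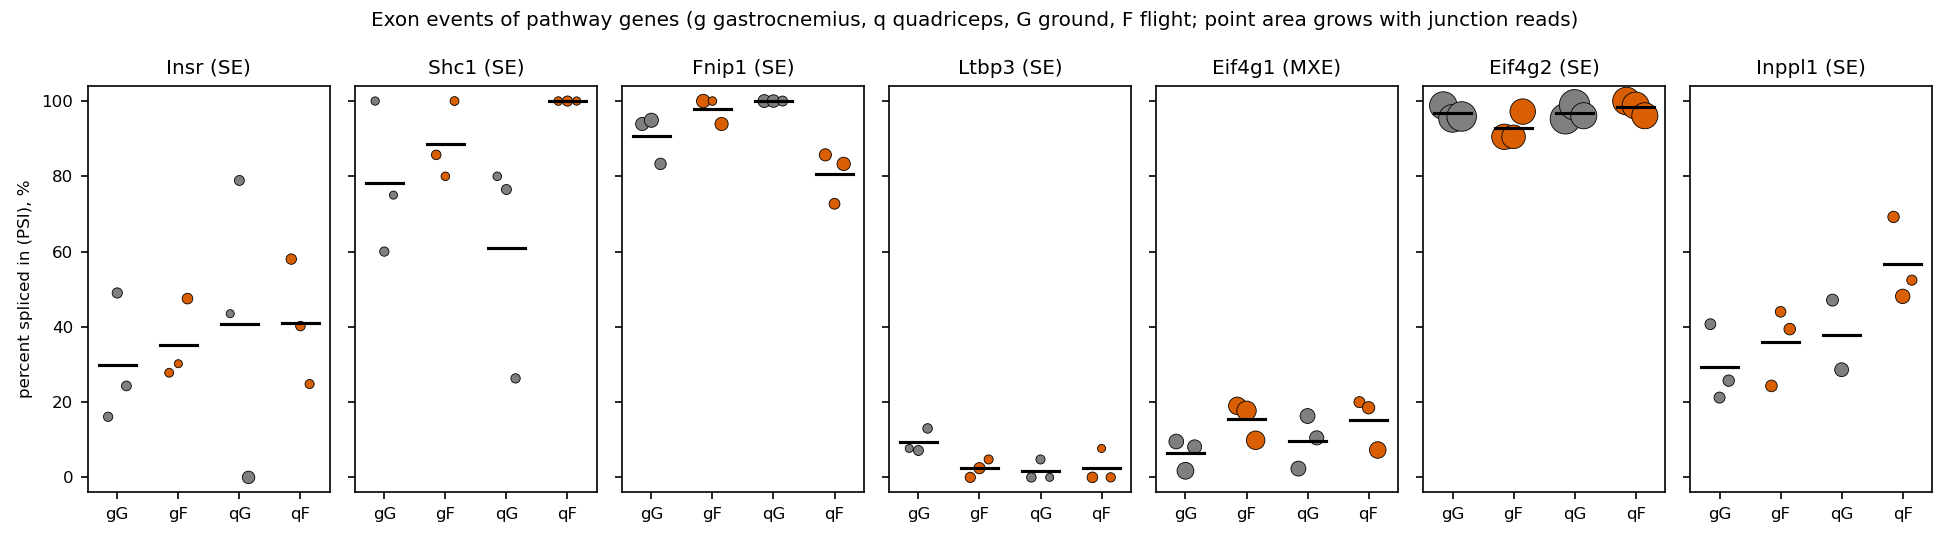
PSI in percent of 7 exon events of pathway genes in ground (G) and flight (F) samples of the gastrocnemius (g) and quadriceps (q). Points are samples, with an area that grows with their junction reads, and bars are group means. In the quadriceps, Shc1 and Fnip1 show groups that do not overlap (2 of 17 events tested). In the gastrocnemius, Ltbp3 and Eif4g1 show the same (2 of 18). The share of all events without overlap is not given, so nothing is read from these counts. No event shown passed the adjusted test.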

How the data were processed

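The authors estimated transcript abundance with kallisto 0.46.0 and summed it per gene, and the deposited table holds TPM for 12 libraries. From reads aligned to mm10 with STAR 2.7.1a they counted junction reads per SE and MXE event with rMATS-turbo, and these deposited read counts, listed per group without sample names, were used. The authors' p-value, FDR and inclusion level columns were not used, nor was DESeq2 1.26.0, which the submitters' processing notes name and which needs counts.

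A TPM above 5 in 1 or more of the 12 libraries was required. Values of log2(TPM + 1) were tested with limma 3.58.1 in R 4.3.3 (eBayes with a trend), two-sided, with Benjamini-Hochberg adjustment. Flight and ground were compared within a muscle, with 6 libraries. Muscles were compared over 12 libraries with mouse as a block. For splicing, inclusion and skipping reads each had 0.5 added and were divided by their effective lengths, and limma tested the log2 of their ratio. Events needed a mean of over 10 reads in both groups, and a call needed a PSI difference over 5 percentage points. Intervals are at 95%.

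Members, lists and tests were chosen with earlier results of these data known. From each list, up to 2 genes with the lowest unadjusted p under 0.05 in each muscle were named, with all called genes, up to 3 events per muscle and 2 genes closest to each member. Of the genes this rule names, 2 are not reported here. The expression fits were tested on simulated data over 10481 genes and recovered 74% of changes of 1 on the log2 scale between flight and ground gastrocnemius, 74.5% in the quadriceps and 41% for the interaction. The simulated noise was normal and independent between libraries, without differences shared by the muscles of a mouse. These shares are therefore not the power for any member. Alternatives were another pseudocount (0.1), other filters, rescaling, no trend, other blocks and leaving out each library.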

Additional observations from a re-analysis of the deposited data

How the results depend on the processing

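No member was called between flight and ground mice under any alternative; the lowest adjusted p was 0.0966 in the gastrocnemius and 0.226 in the quadriceps. Genes called in the gastrocnemius went from 24 to 4 with no filter on low values, to 5 without a trend, and ranged from 1 to 133 when a library was left out. In the quadriceps they went from 3 to 1 after rescaling, to 1 without a trend, and ranged from 1 to 4. Between muscles in ground mice they went from 335 to 77 with no filter (members from 2 to 0) and ranged from 36 to 335 without 1 mouse (members 0 to 2). In flight mice they went from 350 to 200 with no filter and ranged from 77 to 354. For the interaction, 2 genes were called with no filter and 0 to 1 without 1 mouse, and splicing calls in the gastrocnemius ranged from 1 to 9 without 1 sample (8 with all samples, 12 with 1 added to each junction count). Leaving out 1 library turned the direction of the gastrocnemius flight difference of Acvr2b (−0.15 to 0.27), Irs1 (−0.069 to 0.25), Eif4ebp1 (−0.10 to 0.18), Fst (−0.028 to 0.27) and Ddit4 (−0.22 to 1.44). In the quadriceps it turned Igf1r (−0.051 to 0.13), Acvr2b (−0.13 to 0.13) and Sesn1 (−0.053 to 0.28). The PSI difference of Insr ranged from −1.47 to 15 points in the gastrocnemius and from −20.2 to 19.3 in the quadriceps. The cause of these shifts was not tested.

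Replicate numbers do not pair flight with ground mice, whose same-numbered libraries correlated with r of −0.18 to 0.111. With the replicate number as a block, 0 genes were called in the gastrocnemius and 0 in the quadriceps. Splicing samples carry no numbers, so no paired analysis was possible for them.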
